A study of Mus musculus with 10 samples.

Results

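The epithelial and gland transcription factors measured here are 10 genes of 29268 listed for mouse uterus. They were chosen by gene name, as Elf3, Ehf and Spdef of the ETS family, Grhl1, Grhl2 and Grhl3 of the grainyhead family, and Foxa2, Sox9, Sox17 and Pax8. Each of 5 HSD17B1TG and 5 wild-type (WT) females, 4 months old, gave 1 RNA-seq library from the uterus. Whether the whole organ or a piece was taken for RNA is not stated, so the amount of muscle layer sampled may differ between mice. HSD17B1TG mice are FVB/N mice of a heterozygous line that carries human HSD17B1 cDNA, encoding an enzyme that converts estrone to estradiol, under the CMV-enhanced chicken beta actin promoter. The cDNA is expressed throughout the body, so the transgene was not restricted to the uterus or to its epithelium. WT mice carry no transgene, and the labels give no treatment for either genotype. The human transgene is not in the mouse annotation, so the labels could not be checked on it. The methods describe the transgenic line as acyclic and, for the histology, the phase of the WT controls as left to chance. Genotype and cycling therefore cannot be told apart. Mice of the HSD17B1TG genotype are written TG1 to TG5, those of the WT genotype WT1 to WT5, and the numbers pair no mice.

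The uterine lining consists of a luminal epithelium that dips into the stroma as glands, and transcription factors set the identity of these cells. ETS factors of the epithelial branch bind purine-rich GGAA sites, and grainyhead factors switch on genes of cell junctions and of the epithelial barrier. FOXA2 is restricted to gland cells in the adult mouse uterus and is needed for gland development and secretion, SOX17 works in epithelium and in arterial endothelium, and PAX8 marks epithelium derived from the Müllerian duct.

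Of the 10 members, 9 passed the filter on low counts and Spdef did not. Grhl3 passed through its HSD17B1TG counts alone and so could be tested only because it was high there. It is therefore left out of the counts of members that follow, and its p-values further on are a description. In HSD17B1TG, Elf3, Grhl3 and Sox9 had the highest fold changes of the members, at 5.17-fold, 15.2-fold and 2.76-fold above WT, while Foxa2 and Sox17 lay slightly below WT. A gene was called when its adjusted p-value was under 0.05, its fold change over 2 and its mean FPKM (fragments scaled to gene length and library depth) over 1 in either genotype. With edgeR's quasi-likelihood test, 0 of the other 8 members were called higher, where 2.16% of all 16993 genes tested were, and 0 were called lower, where 2.08% were. At an unadjusted p under 0.05 the edgeR test held 3 of the 8, Elf3, Grhl1 and Sox9, all higher in HSD17B1TG, against 14.7% of all genes tested. With DESeq2, the test the study used, 2 of the 8 were called higher (Elf3 and Sox9), where 4.17% of the genes it tested were. The same 2 were called by limma voom with quality weights, where 6.37% of all genes were. For 6 of the 8 the log2 fold change was above 0, against 50.2% of all genes tested, and their median was 0.70 against 0.00 over all genes. On log2(FPKM + 1), the exact permutation test had 3 of the 8 (Elf3, Grhl1 and Sox9) higher at an unadjusted p under 0.05, where 13.4% of all genes tested were. The FPKM values of the genotypes overlapped for all 10 members, and 6.69% of all genes tested had values that did not overlap.

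Upstream sequence is shown for Elf3 and Grhl3, the members with the highest fold changes. RefSeq start sites were on hand for 6 of the 10 members (Elf3, Grhl1, Grhl3, Foxa2, Spdef and Pax8), as windows of 250 bases before to 50 bases after each start on build GRCm38.p6. The printed parts run 5′ to 3′ on the minus strand, which is that of both genes, and stop before the first annotated exon. The Elf3 stretch lies at chr1:135258569-135258722, and the Grhl3 stretch lies at chr4:135573633-135573882. The full 250 bases before each RefSeq start hold 8 CpG dinucleotides for either gene. For Elf3 only 154 of these bases are printed, so its printed stretch does not hold all 8. Neither stretch held any motif searched, so both are printed without capitals.

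Elf3: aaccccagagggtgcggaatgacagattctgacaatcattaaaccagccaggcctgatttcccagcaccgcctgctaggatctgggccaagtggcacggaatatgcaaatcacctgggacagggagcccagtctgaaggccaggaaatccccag

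Grhl3: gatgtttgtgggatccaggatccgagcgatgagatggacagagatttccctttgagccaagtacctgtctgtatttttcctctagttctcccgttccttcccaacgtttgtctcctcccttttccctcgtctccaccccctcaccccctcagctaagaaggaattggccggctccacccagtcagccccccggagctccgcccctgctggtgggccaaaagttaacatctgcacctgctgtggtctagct

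The windows were searched on both strands for the palindromic estrogen response element and its single arm GGTCA, for the ETS motif GGAAGT, for the grainyhead palindrome AACCGGTT and its core AACCGG, for the FOXA motif TGTTTAC and for the TATA box TATAAA. The single arm lies within the full element, and the core lies within the palindrome. No member window held the full estrogen response element, which 0.0639% of 32841 promoter windows held. The single arm stood in the Spdef window alone, at position -164 from the start, and in 35.2% of all windows. The grainyhead core stood in the Elf3 window at position -68 from the RefSeq start, a place that GENCODE M21 counts as exon, and in 5.62% of all windows. The ETS motif stood in the Pax8 window and in 1 of 3 Foxa2 windows, and in 19.7% of all windows. The FOXA motif stood in no member window and in 3.17% of all windows. The TATA box stood in 1 Foxa2 window and in 12.4% of all windows. For the palindrome the share of all windows was 0.116%, with no member among them. These matches are letters in a window and were not tested as binding sites.

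Elf3 encodes an ETS factor of simple and secretory epithelia and was the member with the highest mean FPKM in both genotypes. The gene (ENSMUSG00000003051) lies on chr1:135253575-135258568 on the minus strand. In HSD17B1TG its FPKM was 238 in TG1, 576 in TG2, 484 in TG3, 425 in TG4 and 795 in TG5. In WT it was 135 in WT1, 32.3 in WT2, 15.2 in WT3, 282 in WT4 and 25.1 in WT5. WT2, WT3 and WT5 lay low, WT1 and WT4 lay higher, and TG1 was the only HSD17B1TG mouse under a WT mouse (WT4). The mean was 504 ± 205 FPKM in HSD17B1TG mice and 98.0 ± 114 in WT mice (SD, n = 5 each). The WT mice spread 18.5-fold from lowest to highest, and the HSD17B1TG mice 3.35-fold. The log2 fold change was 2.37 with an SE of 0.76 and an edgeR adjusted p of 0.0804, and the DESeq2 adjusted p was 0.00859. Limma voom with quality weights gave a larger log2 fold change of 3.54 with an adjusted p of 0.00776. On log2(FPKM + 1), the two-sided exact permutation test over all ways to divide the mice gave p = 0.0159. Without WT4, the WT mouse with the highest Elf3, the log2 fold change was 3.28 and the edgeR adjusted p was 0.0147. In the other 9 fits that each lacked 1 mouse the edgeR adjusted p was between 0.0621 and 0.172. Elf3 overlaps the antisense gene Gm26642 over 4994 bases. The highest Gm26642 count in any mouse was 268, against Elf3 counts of 27447 in TG5, the highest, and 545 in WT3, the lowest. How far reads of these genes were mixed was not tested.

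Ehf belongs to the same epithelial subgroup of ETS factors as Elf3. Its FPKM was 8.11 in TG1, 34.5 in TG2, 25.1 in TG3, 11.3 in TG4 and 27.1 in TG5, against 19.9 in WT1, 18.8 in WT2, 17.5 in WT3, 11.7 in WT4 and 10.98 in WT5. The genotypes interleaved, with TG2, TG3 and TG5 above every WT mouse and TG1 below every WT mouse. The log2 fold change was 0.42 with an SE of 0.37 and an edgeR adjusted p of 0.511, and it was 0.17 without TG2 and 0.63 without TG1. The HSD17B1TG mice spread 4.25-fold for Ehf and the WT mice 1.82-fold, the reverse of the order for Elf3.

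Spdef drives goblet and other mucus-secreting cells in several organs, and in these uteri it was near the limit of detection. Its counts were 7, 3, 8, 0 and 0 in TG1 to TG5 and 18, 9, 33, 1 and 9 in WT1 to WT5. A count of 3 in the smallest library corresponds to 0.202 CPM, where CPM is the count scaled to library depth, and this limit covers counting error only. The WT mean was 0.324 ± 0.332 FPKM (SD, n = 5) and the HSD17B1TG mean was 0.0844 ± 0.0873, and every WT mouse but WT4 lay above all HSD17B1TG mice. The exact permutation test on log2(FPKM + 1) gave p = 0.0952, and DESeq2 gave a log2 fold change of -1.91 with an adjusted p of 0.228. The difference of mean log2(FPKM + 1) was -0.26, and it was -0.35 without WT4 (exact permutation p = 0.0159) and -0.12 without WT3 (exact permutation p = 0.190). In the other 8 such exact permutation tests p was between 0.0794 and 0.190.

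**Figure D1:**
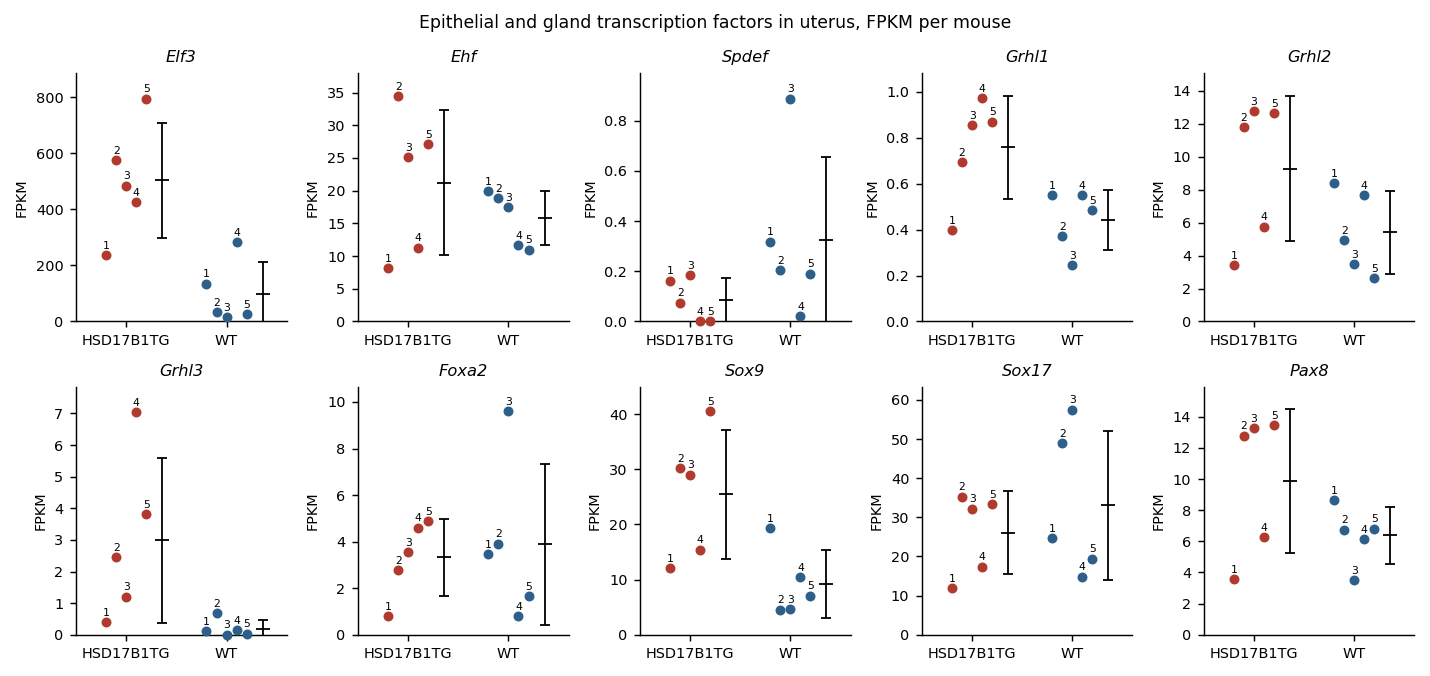
FPKM per mouse (linear axes from 0, a different range in each panel) for the 10 members, with HSD17B1TG mice in red and WT mice in blue, numbered within each genotype, and the mean ± SD (n = 5, cut off at 0) in black. Elf3, Grhl3 and Sox9 lie higher in most HSD17B1TG mice, TG1 is the lowest HSD17B1TG mouse in 9 of 10 panels, and the genotypes overlap in every panel.

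The grainyhead genes covered a wide range of levels. Grhl2, which maintains epithelial junctions, was the most abundant of the 3 in both genotypes, with a mean of 9.29 ± 4.38 FPKM in the HSD17B1TG mice and 5.42 ± 2.53 FPKM in the WT mice (SD, n = 5 each). Its FPKM was 3.43, 11.8, 12.8, 5.76 and 12.7 in TG1 to TG5 and 8.40, 4.92, 3.47, 7.66 and 2.64 in WT1 to WT5. TG2, TG3 and TG5 lay above every WT mouse, and TG1 lay below 4 of the WT mice. The log2 fold change of 0.78 with an SE of 0.42 had an edgeR adjusted p of 0.265. Grhl2 overlaps 3 antisense genes, of which Gm16136 reached a count of 440 and the other 2 stayed at 10 or under.

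Grhl1, known for desmosome genes, had the same fold change at a much lower level. Its FPKM was 0.397, 0.695, 0.854, 0.974 and 0.870 in TG1 to TG5 and 0.551, 0.371, 0.246, 0.551 and 0.485 in WT1 to WT5, so that every HSD17B1TG mouse but TG1 lay above all WT mice. Its log2 fold change was 0.78 with an SE of 0.32, the edgeR adjusted p was 0.157 and the exact permutation p was 0.0397.

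Grhl3, the grainyhead factor of barrier-forming and squamous epithelia, was the member with the highest fold change. The gene (ENSMUSG00000037188) lies on chr4:135541888-135573630 on the minus strand. Its FPKM was 0.404 in TG1, 2.45 in TG2, 1.20 in TG3, 7.05 in TG4 and 3.82 in TG5, against 0.117 in WT1, 0.679 in WT2, 0 in WT3, 0.139 in WT4 and 0.0350 in WT5. These values rest on 21 to 317 counts in HSD17B1TG and 0 to 36 counts in WT. TG1 lay below WT2, and the remaining HSD17B1TG mice lay above every WT mouse. The mean was 2.99 ± 2.62 FPKM in HSD17B1TG mice and 0.194 ± 0.277 in WT mice (SD, n = 5 each), with a log2 fold change of 3.92, an SE of 1.04 and an edgeR adjusted p of 0.0503. DESeq2 gave an adjusted p of 5.85e-04, and the exact permutation p was 0.0159. Over the 10 fits that each lacked 1 mouse the edgeR adjusted p for Grhl3 ran from 0.0278 (without TG1) to 0.106 (without WT5), and it was under 0.05 in 2 of them, the other being without TG3 (0.0466). Without WT2 the log2 fold change was 5.24, and without TG4 it was 3.32.

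Sox9, a factor of gland and duct progenitor cells in several organs, lies on chr11:112782224-112787760 on the plus strand. Its FPKM was 12.1 in TG1, 30.2 in TG2, 29.0 in TG3, 15.4 in TG4 and 40.6 in TG5. In WT it was 19.3 in WT1, 4.56 in WT2, 4.68 in WT3, 10.4 in WT4 and 7.10 in WT5. WT1 lay above TG1 and TG4, and the remaining WT mice lay below all HSD17B1TG mice. The mean was 25.5 ± 11.7 FPKM (SD, n = 5) against 9.22 ± 6.13, the log2 fold change was 1.47 with an SE of 0.45, and the edgeR adjusted p was 0.0742. The DESeq2 adjusted p was 0.0187 and the exact permutation p was 0.0317. Over the 10 fits that each lacked 1 mouse the edgeR adjusted p for Sox9 ran from 0.0415 (without TG1, log2 fold change 1.64) to 0.166 (without TG5, log2 fold change 1.23) and was under 0.05 in 1 of them.

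Sox17, of the SOXF group, was the second most abundant member by mean FPKM in both genotypes, although Sox9 was higher in TG1 and TG5. Its FPKM was 12.0, 35.3, 32.2, 17.4 and 33.4 in TG1 to TG5 and 24.6, 49.0, 57.5, 14.9 and 19.5 in WT1 to WT5. WT2 and WT3 were the 2 highest mice, and TG1 was the lowest. The mean was 26.1 ± 10.6 FPKM (SD, n = 5) against 33.1 ± 19.0, with a log2 fold change of -0.35, an SE of 0.42 and an edgeR adjusted p of 0.642, and it was -0.08 without WT3 and -0.54 without WT4. The antisense gene Gm37587, which overlaps Sox17, had a count of at most 43.

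Foxa2, the gland factor, was low in both genotypes. Its FPKM was 0.792, 2.79, 3.54, 4.61 and 4.88 in TG1 to TG5 and 3.45, 3.91, 9.60, 0.797 and 1.65 in WT1 to WT5. WT3 stood highest, and WT4 and TG1 stood lowest and nearly level. The mean was 3.32 ± 1.64 FPKM (SD, n = 5) against 3.88 ± 3.44, with a log2 fold change of -0.23, an SE of 0.64 and an edgeR adjusted p of 0.851. The sign of this value rested on single mice, since the log2 fold change was 0.02 without TG1 and 0.41 without WT3.

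Pax8 is a marker of the epithelium of the female tract. Its FPKM was 3.56, 12.8, 13.2, 6.27 and 13.5 in TG1 to TG5 and 8.66, 6.75, 3.52, 6.16 and 6.82 in WT1 to WT5. TG2, TG3 and TG5 lay above every WT mouse, and TG1 and WT3 stood lowest and nearly level. The log2 fold change was 0.62 with an SE of 0.36 and an edgeR adjusted p of 0.304. Its overlapping antisense gene Gm13415 had a count of at most 17.

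By mean FPKM the order in HSD17B1TG was Elf3, Sox17, Sox9, Ehf, Pax8, Grhl2, Foxa2, Grhl3, Grhl1 and Spdef. In WT it was Elf3, Sox17, Ehf, Sox9, Pax8, Grhl2, Foxa2, Grhl1, Spdef and Grhl3. Sox9 thus stood in place 3 in HSD17B1TG and 4 in WT, and Grhl3 in place 8 and 10. In HSD17B1TG the ranges of neighbours in this order overlapped except for Elf3 over Sox17, where the lowest Elf3 was 238 FPKM and the highest Sox17 was 35.3, and for Grhl1 over Spdef. In WT the ranges of neighbours overlapped except for Foxa2 over Grhl1. In WT, 3 of 5 mice had more Elf3 than Sox17, and the remaining 2, WT2 and WT3, had more Sox17.

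The depth of the libraries lay between 14817228 and 23271988 counts on genes. All 15 epithelial markers (keratins, claudins and other genes of junctions and polarity) were detected in every mouse and had a log2 fold change above 0, with a median of 1.24. Of these 15, edgeR called 2 higher, the protease inhibitor Spint2 and the polarity gene Crb3, where 2.16% of all genes tested were. DESeq2 called 4 of the 15, where 4.17% of the genes it tested were called higher. The summed FPKM of the list ran from 860 (TG1) to 3815 (TG5) in HSD17B1TG and from 624 (WT5) to 1955 (WT4) in WT. Stroma markers lay the other way, with 5 of 9 called lower by edgeR (Pdgfra, Hand2, Hoxa10, Hoxa11 and Col3a1) and these 5 and Col1a1 by DESeq2, a median log2 fold change of -1.46, and sums of 526 to 1932 FPKM against 1728 to 2234. Smooth muscle markers summed to 867 to 7350 FPKM (highest in TG1) against 407 to 5776 (lowest in WT3, highest in WT4), with 0 of 8 called by edgeR or DESeq2 and 0 at an unadjusted edgeR p under 0.05. Their median of 0.64 rested on single mice, since it was 0.11 without TG1, 0.37 without WT2, 0.34 without WT3, 1.47 without WT4 and -0.14 without both TG1 and WT3. Endothelium markers had a median of -0.65 and sums of 43.6 to 155 FPKM against 82.6 to 186. Of these 10, edgeR called 0 (1 higher and 5 lower at an unadjusted p under 0.05) and DESeq2 called 2 lower, Emcn and Esam. Of the 8 leucocyte markers, edgeR called 1 (Laptm5, higher), and DESeq2 also called 2 lower (Ptprc and Cd52), while the median was -0.50 and the sums were 79.0 to 103 FPKM against 62.0 to 133. Oviduct and ciliated cell markers summed to at most 7.78 FPKM in any mouse, with 1 gene tested, Ovgp1. Its log2 fold change was -0.74, but 0.17 without WT3 and -1.31 without TG3. Squamous epithelium markers summed to 5.90 to 45.7 FPKM in HSD17B1TG and 4.91 to 8.38 in WT. Of 6 tested, edgeR called 1, the keratin Krt13, which reached 16.4 FPKM in TG3 and was 0 in WT3 and WT5. The keratin Krt1 had the smallest p of the list (log2 fold change 2.73, edgeR adjusted p = 0.0227). It was not called, since its mean FPKM was under 1 in both genotypes. The median of this list was 2.05, but 1.18 without TG3 and 0.76 with voom. In RNA from bulk uterus more or fewer cells of a type and more or less RNA per cell cannot be told apart, and the part of cell composition in each member's difference was not tested.

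To place the members beside the amount of epithelial RNA, the mean log2 CPM of the 15 epithelial markers was subtracted from the log2 CPM of each member in each mouse. Relative to these markers, 6 of the 8 members counted lay lower in HSD17B1TG, where 93.2% of all genes tested did, and the median difference was -0.63 against -1.26 over all genes. Elf3 was 2.12 ± 0.26 log2 units (SD, n = 5) above the marker mean in HSD17B1TG and 0.26 ± 1.05 above it in WT. The relative level of Elf3 was 2.51, 2.16, 1.78, 2.01 and 2.12 in TG1 to TG5 and 1.09, -0.40, -0.73, 1.66 and -0.30 in WT1 to WT5. The 5 HSD17B1TG mice all lay above the 5 WT mice. The difference was 1.86 log2 units, and the two-sided exact permutation p of 0.00794 is the smallest that 5 against 5 mice can give. Adjusted over all genes tested the exact permutation p was 0.106, a value that 6391 genes shared, so it does not set Elf3 apart from them. With each mouse left out in turn the difference in relative Elf3 stayed between 1.61 and 2.20. The exact permutation p was 0.0159 each time, the smallest possible with 1 mouse fewer. Genotypes that do not overlap must give this value, so it adds no support.

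The relative level of Grhl3 was 2.63 log2 units higher in HSD17B1TG, and WT2 lay among the HSD17B1TG mice. That value depends on the prior count, since it was 3.26 with a prior count of 0.5, and it ran from 2.17 (without TG4) to 3.24 (without WT2) with 1 mouse left out. Of the 8 members counted, Elf3 alone had a raw exact permutation p under 0.05 and a higher relative level, where 1.82% of all genes tested had both. Sox9 differed by 0.30 log2 units relative to the markers (exact permutation p = 0.381), and by 0.12 without WT2 and 0.50 without WT1. Pax8 was 0.74 log2 units below its WT mean, or 1.67-fold lower, with an exact permutation p of 0.0397, and was the 1 member of the 8 with a raw p under 0.05 and a lower relative level, where 42.5% of all genes tested were. For Pax8, leaving out any 1 mouse but WT4 raised the exact permutation p to 0.0635 or 0.0794. The difference for Sox17 was -1.52 (exact permutation p = 0.0556), for Foxa2 -1.24 (p = 0.214 in the same exact test) and for Ehf -0.98 (exact permutation p = 0.0714). The values of all 3 moved with WT4, without which they were -2.003 for Sox17, -1.93 for Foxa2 and -1.32 for Ehf, each with an exact permutation p of 0.0159, while 61% of all genes tested then had a p under 0.05. Without WT3 they were -1.06, -0.60 and -0.72. For Grhl1 it was -0.50 and for Grhl2 -0.51, with exact permutation p of 0.135 and 0.0635. Grhl1 was at -0.31 without WT5, and Grhl2 was at -0.60 without WT4 and without WT5, with an exact permutation p of 0.0476 each time. The adjusted values over all genes were 0.106 or above for every member.

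**Figure D2:**
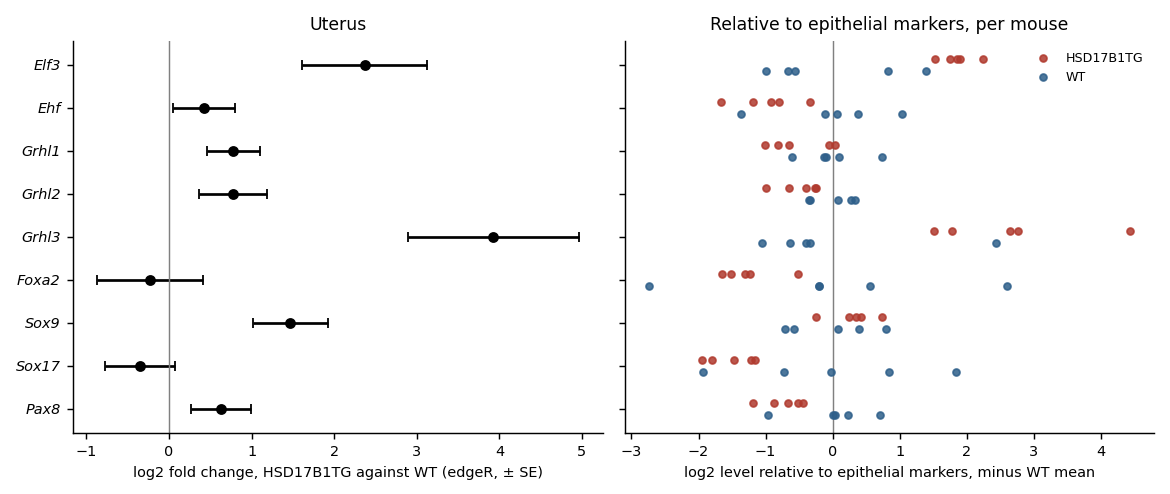
Left, log2 fold change of HSD17B1TG against WT with its SE (edgeR, 5 mice each) for the 9 members tested. Right, the level of each member relative to the epithelial markers in each mouse (log2 units, minus the WT mean), with HSD17B1TG in red and WT in blue, where Elf3 is the member whose genotypes do not overlap.

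**Figure D3:**
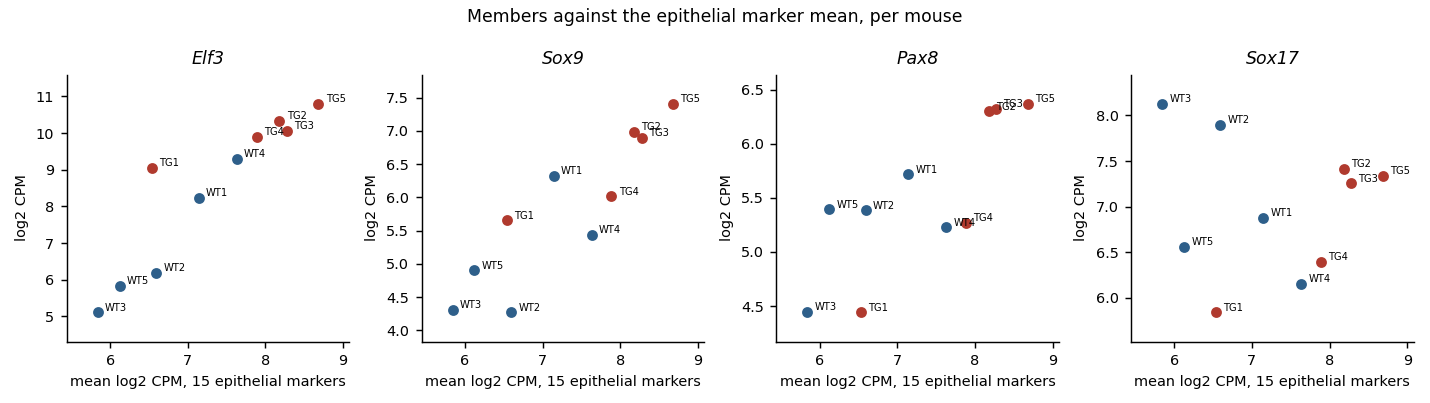
Level of 4 members (log2 CPM) against the mean log2 CPM of the 15 epithelial markers, 1 point per mouse, HSD17B1TG in red and WT in blue. TG1 has a marker mean of 6.54, close to WT2 at 6.59, but an Elf3 count of 9824 against 1362, whereas TG4 (7.89) and WT4 (7.63) have 15197 and 12923, and Sox17 is highest in WT3 and WT2, which lie low on the marker axis.

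TG1 and WT2 had nearly the same epithelial marker mean, 6.54 and 6.59 log2 CPM, and Elf3 reached 238 FPKM in TG1 and 32.3 FPKM in WT2. TG4 and WT4 were also close on the markers, at 7.89 and 7.63 log2 CPM, and their Elf3 was 425 and 282 FPKM. Both pairs were picked after the values were seen. Sox17 was 12.0 FPKM in TG1 and 49.0 in WT2, and 17.4 FPKM in TG4 and 14.9 in WT4. TG1 was the HSD17B1TG mouse with the lowest value for 9 of the 10 members and also the one with the lowest epithelial and highest smooth muscle markers. WT3 had the lowest value among WT for 4 members (Elf3, Grhl1, Grhl3 and Pax8) and the highest for 3 (Foxa2, Sox17 and Spdef), beside the lowest epithelial marker mean, 5.84 log2 CPM.

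Ratios within a mouse were computed between relatives after the values had been seen. The FPKM ratio of Sox9 to Sox17 was 1.01, 0.856, 0.900, 0.886 and 1.21 in TG1 to TG5 and 0.786, 0.0930, 0.0813, 0.703 and 0.365 in WT1 to WT5. The HSD17B1TG mice lay close to 1 and all above the WT mice, which spread widely. The ratio differed by 1.82 on the log2 CPM scale, with an exact permutation p of 0.00794, the smallest possible. It stayed between 1.38 and 2.20 with each mouse left out. The ratio of Elf3 to Ehf was 29.3, 16.7, 19.3, 37.7 and 29.3 in TG1 to TG5 and 6.77, 1.72, 0.871, 24.2 and 2.29 in WT1 to WT5, with WT4 among the HSD17B1TG mice. That ratio differed by 2.84 log2 units (exact permutation p = 0.0238), and the ratio of Grhl3 to Grhl2 differed by 3.14 log2 units, or 3.77 with a prior count of 0.5. The latter ratio was 1.22 in TG4 and 0.302 or lower in all other mice, and WT2 (0.138) lay above TG1 (0.118) and TG3 (0.0939). With each mouse left out in turn the first stayed between 2.33 and 3.53 and the second between 2.57 and 3.73. The ratio of Grhl1 to Grhl2 was 0.0589 to 0.169 in HSD17B1TG and 0.0656 to 0.184 in WT and differed by 0.01 log2 units (exact permutation p = 0.984). With 4 ratios compared, the values are unadjusted and describe these mice.

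**Figure D4:**
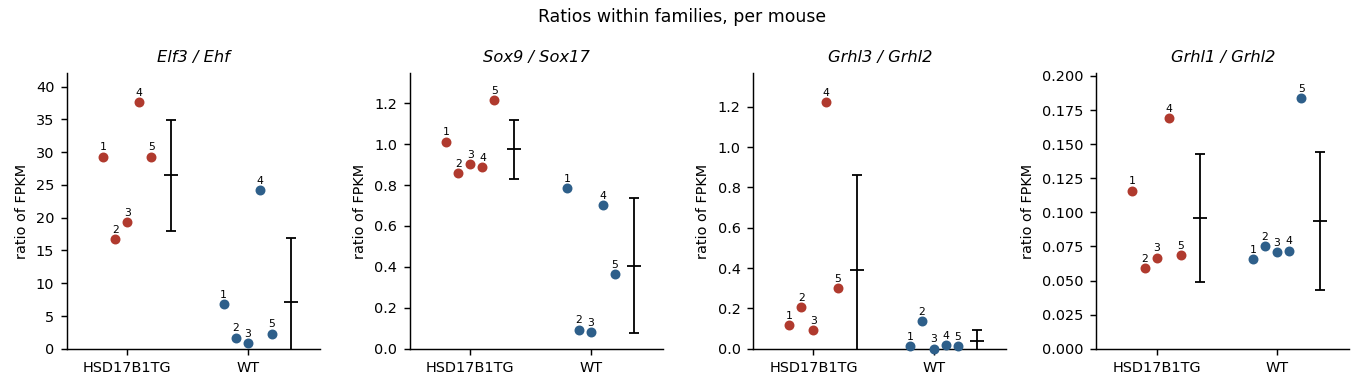
Ratio of FPKM within each mouse for 4 pairs of relatives (linear axes from 0), HSD17B1TG in red and WT in blue, numbered within genotype, with the mean ± SD (n = 5, cut off at 0). The ratio of Sox9 to Sox17 is 0.856 or higher in all HSD17B1TG mice and 0.786 or lower in all WT mice, and the ratio of Grhl1 to Grhl2 overlaps.

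Genes placed under these factors were described by lists written from general knowledge. Of the grainyhead targets, junction and barrier genes such as the cadherin Cdh1, edgeR called 0 of 9 tested. At an unadjusted edgeR p under 0.05, 6 were higher, where 14.7% of all genes tested were. DESeq2 called 3 higher, Cdh1, Cldn4 and Ovol2, where 4.17% of the genes it tested were. Of the 9, 8 had a log2 fold change above 0 and the median was 1.20. The claudin Cldn4 (log2 fold change 1.56) and the zinc finger repressor Ovol2 (1.71) had the smallest p-values of that list, with edgeR adjusted p of 0.101 and 0.0888. Of these 9 targets, 5 are also among the 15 epithelial markers.

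FOXA2-dependent gland products split by gene. Lif, the cytokine needed for implantation, was 3.03, 6.74, 7.68, 5.42 and 8.97 FPKM in TG1 to TG5 and 1.90, 0.593, 1.94, 4.65 and 0.673 FPKM in WT1 to WT5. Only WT4 lay above an HSD17B1TG mouse, and the log2 fold change was 1.71 with an edgeR adjusted p of 0.0773. Cxcl15, a chemokine of gland cells, was listed at 0 in TG1 to TG4 and at 1.057 FPKM in TG5. In WT1 to WT5 Cxcl15 was 1.78, 18.8, 32.3, 0.159 and 9.76 FPKM, with a log2 fold change of -5.94 that depends on the prior count and an edgeR adjusted p of 0.0566. The remaining 3 genes of that list were not tested by edgeR, since too few mice had counts for its filter. DESeq2, whose filter differs, called Lif higher and Cxcl15 and Spink1 lower. The protease inhibitor Spink1 reached 36.4 FPKM in WT3 and 14.7 in WT5 and at most 0.147 elsewhere. The implantation serine proteases Prss28 and Prss29 were highest in WT5, at 7.30 and 23.96 FPKM, and next in WT3, at 1.04 and 1.58 FPKM. All HSD17B1TG mice had a count of 0 for Prss28. Foxa2 itself was 9.60 FPKM in WT3 and 1.65 in WT5, the latter below 4 of the HSD17B1TG mice. Any relation of Foxa2 to these genes was not tested.

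Genes of gland formation had 4 of 16 called lower by edgeR, where 2.08% of all genes tested were, and 0 called higher. Their median log2 fold change was -0.09. The sign of that median was not stable, since it was 0.14 with a filter of CPM of at least 1 in 5 mice and -0.29 without WT5. The 4 were the WNT ligand Wnt5a, the WNT effector Lef1, and the homeobox genes Hoxa10 and Hoxa11. Wnt5a had a mean of 8.05 ± 4.62 FPKM in HSD17B1TG mice against 38.6 ± 17.3 in WT mice (SD, n = 5 each), and Lef1 0.0728 ± 0.0301 FPKM against 1.64 ± 1.57. Hoxa10 and Hoxa11 also stand among the stroma markers. The edgeR adjusted p was 0.0246 for Wnt5a and 0.0225 for Lef1.

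Of the secretory genes that SPDEF is known to drive in mucous cells, edgeR called 2 of 8 tested higher, where 2.16% of all genes tested were. DESeq2 called 5 higher, where 4.17% of the genes it tested were, and the median log2 fold change was 1.83. Of the 8, 6 had a log2 fold change above 0. The remaining 2 were the transcription factors Creb3l1, at -0.86 with an edgeR adjusted p of 0.0592, and Creb3l4, at -0.56 with an edgeR adjusted p of 0.420. The trefoil genes Tff2 and Tff3, the mucin gene Muc5b, Foxa3 and Spink4 were not tested, and none of these 5 was above 0.6025 FPKM in any mouse. Clca1, a secreted protein of goblet cells, was 429, 4299, 1643, 1434 and 2713 FPKM in TG1 to TG5 and 58.0, 36.2, 2.82, 299.6 and 16.7 FPKM in WT1 to WT5. No HSD17B1TG mouse lay below a WT mouse, and the log2 fold change of Clca1 was 4.68 with an SE of 1.15 and an edgeR adjusted p of 0.0424. Clca1 belongs to a family of similar genes, so reads shared with its relatives may have been split. Galnt4, a mucin-type glycosyltransferase, had a mean of 17.4 ± 5.70 FPKM (SD, n = 5) against 7.92 ± 3.37 and an edgeR adjusted p of 0.0462. Fcgbp, a mucus protein singled out after its values were seen, was 1127 ± 684 FPKM in HSD17B1TG mice and 122 ± 131 in WT mice (SD, n = 5 each), with an edgeR adjusted p of 0.0544. Spdef counts were 8 or fewer in every HSD17B1TG mouse. WT3, with the highest Spdef, had the lowest Clca1 and Fcgbp and also the lowest epithelial marker mean, 5.84 log2 CPM. Any relation of Spdef to these genes was not tested.

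**Figure D5:**
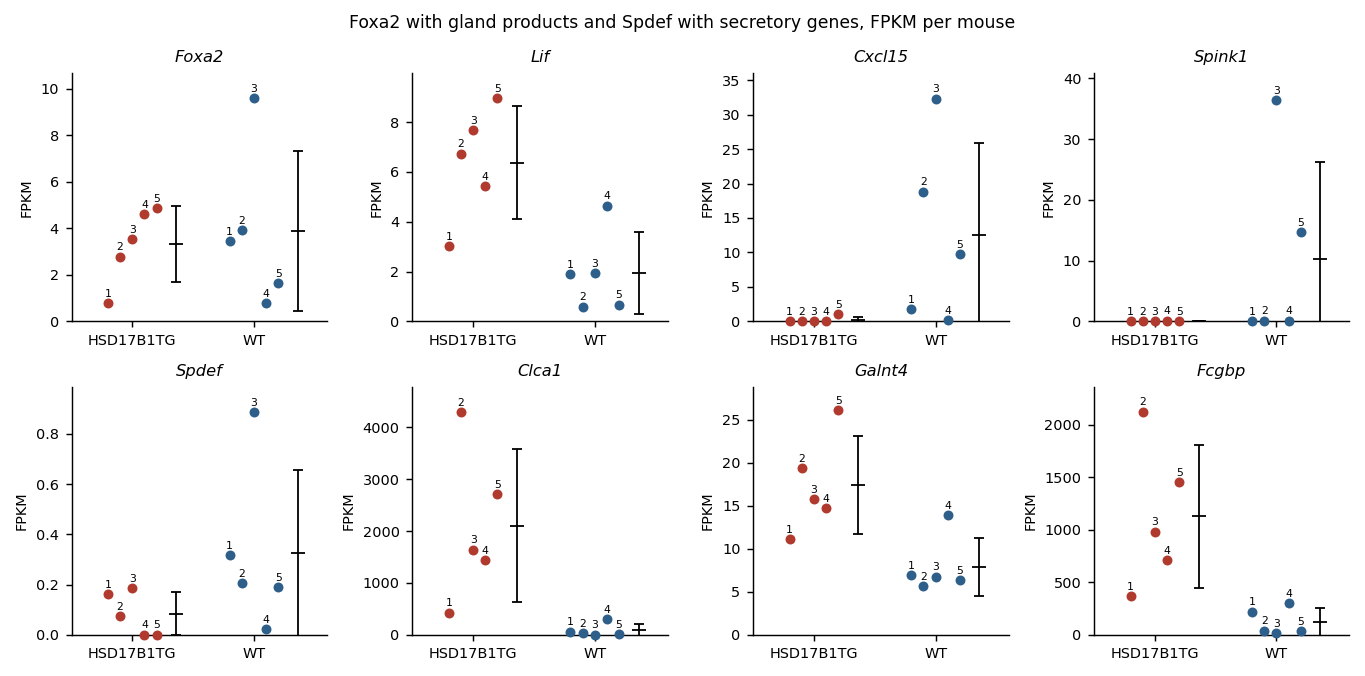
FPKM per mouse (linear axes from 0, different in each panel) of Foxa2 with 3 gland products, and of Spdef with 3 secretory genes, HSD17B1TG in red and WT in blue, with the mean ± SD (n = 5, cut off at 0). Cxcl15 is higher in 4 of 5 WT mice than in any HSD17B1TG mouse, Spink1 reaches 36.4 FPKM in WT3 and 14.7 in WT5, Lif is higher in most HSD17B1TG mice, and Clca1 and Fcgbp are highest in HSD17B1TG while Spdef is highest in WT3.

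Among the SOXF relatives and arterial genes, edgeR called 2 of 7 higher, Sox7 and the Notch ligand Dll4, where 2.16% of all genes tested were. The median log2 fold change of this list was 0.72. Sox7, a relative of Sox17, was 11.8 FPKM in TG1 and 20.96 to 49.5 in the other HSD17B1TG mice, against 3.58 to 12.5 in WT, with an edgeR adjusted p of 0.0297. Of the 17 other epithelial transcription factors tested, edgeR called 0. At an unadjusted edgeR p under 0.05, 4 were higher, where 14.7% of all genes tested were, and 1 was lower. DESeq2 called 2 higher, Klf4 and Ovol2. Of the 17, 10 had a log2 fold change above 0, with a median of 0.22 that was 0.41 without TG1, 0.57 with the same CPM filter and 0.02 with library-size scaling. Ovol2 and Creb3l1 (log2 fold change -0.86, edgeR adjusted p = 0.0592) had the smallest p-values among them. The alternative list of 8 epithelial markers outside keratins and grainyhead targets had a median of 1.30, with 2 called higher, again Spint2 and Crb3.

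The genes nearest to Elf3 were sought over the 10 mice after subtracting each genotype's mean log2 CPM. The 5 protein-coding genes with the highest Pearson r were Lcn2 (0.99), Bhlhe40, Ube2f, Ceacam1 and Sprr2a1 (0.98 each). Spearman's rho was 1 for Lcn2 and between 0.976 and 0.988 for the other 4. Without WT3 and WT5, the 2 mice farthest from the median, r stayed between 0.967 and 0.993 for these 5 genes. They were picked as the highest of all genes, so these values describe the choice and carry no test. Lcn2, an iron-binding protein secreted by epithelium, had a mean of 1648 ± 931 FPKM in HSD17B1TG mice and 258 ± 410 in WT mice (SD, n = 5 each), with a log2 fold change of 2.69 and an edgeR adjusted p of 0.211. Sprr2a1 shares near-identical copies in its gene cluster, so its counts are uncertain. The members' own r with Elf3 on this scale was 0.76 for Sox9 and Grhl2, 0.69 for Grhl1, 0.51 for Pax8, 0.38 for Grhl3, 0.19 for Ehf and -0.34 for both Foxa2 and Sox17. Without WT3 and WT5 it was 0.75 for Sox9, 0.71 for Grhl2, 0.68 for Grhl1, 0.44 for Pax8, 0.21 for Ehf, 0.08 for Grhl3, -0.19 for Foxa2 and -0.26 for Sox17.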

How the data were processed

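RNA from the uterus of 5 HSD17B1TG and 5 WT mice was sequenced by the authors as paired-end reads of 150 bp, and HISAT2 2.0.5 placed them on mouse build GRCm38 (annotation: Ensembl 94). For 29268 genes the authors deposited raw counts and FPKM values per mouse in 1 table. The counting program, its strand setting and its handling of multiply mapped reads are not given in the sources used here, so reads of a gene and of an overlapping antisense gene may be mixed. The fold changes and p-values of the authors' own comparison were not used, nor were the deposited subset of changed genes and the GO and KEGG over-representation tables.

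After filterByExpr and TMM scaling, the quasi-likelihood test of edgeR 4.0.16 (R 4.3.3) was run on the counts, and p-values were adjusted by Benjamini-Hochberg over all 16993 genes that passed the filter. DESeq2 1.42.0 and limma voom (limma 3.58.1) were alternatives. Single values were compared on log2(FPKM + 1), and relative levels on log2 CPM with a prior count of 2, by two-sided exact permutation tests (scipy 1.17.1). Relative levels were adjusted over all genes tested rather than, as first planned, over the members. The scripts were tested on simulated data.

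The 14 lists (epithelial, stroma, smooth muscle, endothelium, leucocyte, oviduct and squamous markers, and targets or relatives of the members) were written by hand. The members and lists were chosen with earlier results of these data known. Genes named are the 10 members, of each list those called plus up to 2 with the smallest edgeR p, and the 5 genes nearest Elf3. Cdh1, Klf4, Cd52, Col1a1, Creb3l4, Fcgbp, Foxa3, Muc5b, Spink1, Spink4, Tff2, Tff3, Prss28 and Prss29 lie outside this rule and were named after their values were seen. Overlapping genes were read from GENCODE M21 and start sites from RefSeq. Precision is set by the 5 mice per genotype and, for Spdef and Grhl3, by counts. The labels name no batch, litter or pairing.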

Additional observations from a re-analysis of the deposited data

Results flagged for a closer look

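Grhl3 in WT2 stood apart from the other WT mice, at a log2(FPKM + 1) of 0.75 and at -5.57 log2 units relative to the epithelial markers. In both cases its gap to the nearest WT mouse was over 0.71 of the range of the 5 WT mice, the limit of Dixon's test at 95%. WT2 had 36 Grhl3 counts, and the other WT mice had 8 or fewer. In all, 38 groups of 5 mice were examined, of which chance marks about 1 in 20, and these 2 cover the same mouse and gene.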

How the results depend on the processing

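The number of members called was 0 with edgeR and 3 with DESeq2 or voom, Grhl3 included here and in the rest of this paragraph. It was 0 under RLE, upper-quartile or library-size scaling, without the filter on low counts, with CPM of at least 1 in 5 mice, and with an adjusted p under 0.05 alone. With 1 mouse left out it was 0 to 2. The calls came without TG1 (Grhl3 and Sox9), TG3 (Grhl3) and WT4 (Elf3), and leaving out TG1 and WT3 together, chosen after seeing the data, gave 1 (Grhl3). The median log2 fold change of the members stayed at 0.60 to 0.94 with 1 mouse left out. Library-size scaling moved the median of all genes to -0.17, so directions are relative to that shift. The number of genes called over the whole table with 1 mouse left out ran from 38 to 888 higher and from 27 to 666 lower, against 367 and 354.

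On FPKM, 3 of the 8 members counted without Grhl3 had an exact permutation p under 0.05, where 24.1% of all genes tested did. With 1 mouse left out it was 1 to 4, where 18.2% to 27.8% of all genes did. With 4 mice in a genotype, Sox9 and Grhl1 had p over 0.05 in 6 and 7 of the 10 such exact permutation tests. Relative to the epithelial markers 2 of the 8 (Elf3 and Pax8) had an exact permutation p under 0.05, where 44.3% of all genes tested did. With the markers outside keratins and grainyhead targets there were 4, adding Grhl2 and Sox17, beside 56.9% of all genes. With 1 mouse left out there were 1 to 6 beside 21.7% to 76.2% of all genes, the 6 being without WT4, where 61% of all genes passed. Without TG1 and WT3 there was 1 (Elf3), beside 51% of all genes. These shares move with the markers and the mice kept, so the counts say nothing particular to the members.

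Foxa2 changed sign most often. Its log2 fold change ran from -0.49 to 0.41 with 1 mouse left out and was 0.69 without TG1 and WT3. Its difference of mean log2 values was 0.00483 with a pseudocount of 0.1, 0.00245 on log2 CPM and -0.32 to 0.32 with 1 mouse left out. The log2 fold change of Sox17 was -0.54 to -0.08 with 1 mouse left out and 0.13 without TG1 and WT3. The log2 ratio of Grhl1 to Grhl2 ran from -0.22 to 0.28. The signs of the other 7 tested members' log2 fold changes held under every alternative run. The causes were not tested. No paired analysis was possible because the labels name no pairing of mice between the genotypes.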
